A study of Mus musculus with 86 samples.

Results

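The genes described here are 8 genes known from fat cells: Adipoq, Lep, Cfd, Fabp4, Car3, Scd1, Plin1 and Plin4. They were chosen because they rose in Btbd18 knockout testes at postnatal day 14 (P14), and they are 8 of the 24276 features counted in 20 whole-testis RNA libraries. Values from the P14 contrast are therefore given as a description without a test. Tests were run only at the other ages and in purified cells.

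All mice were hybrids of C57BL/6 and 129/SvJ. Heterozygous Btbd18 animals served as controls and homozygous knockouts as the mutants, so the controls also carried 1 mutant allele. Testes were taken at P10, P14, P18 and P28, with 3 libraries per genotype at P10 and P18 and 2 per genotype at P14 and P28. Spermatocytes and round spermatids, purified from animals aged 4 months, gave 3 libraries per genotype each, and small RNA was sequenced from testes at P10, P14 and P18. The labels do not say whether libraries of a group came from separate animals, so every p-value measures the spread between these samples only.

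Testis libraries held 5.82 to 12.3 M counts, purified-cell libraries 0.194 to 0.543 M. Levels are given as CPM, counts per 1e6 counts of the library. Btbd18 itself lay between 5.57 and 20.5 CPM in the 10 heterozygous testis libraries and between 1.46 and 4.19 CPM in the 10 knockout libraries, with no overlap. Spermatid genes, added to the lists after the data were seen (Tnp1, Tnp2, Prm1, Prm2, Odf1, Akap4, Acrv1, Smcp), summed to 2144 to 4176 CPM in heterozygous round spermatid libraries. In the libraries labelled knockout round spermatids they summed to 5.16 to 83.0 CPM, so the defining genes of that cell type were nearly absent there.

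White fat cells store triglyceride in a single large lipid droplet coated by perilipins, and they secrete hormones into the blood. Fat pads lie next to the testis and the epididymis, while Leydig cells, which make testosterone, hold small lipid droplets and share part of this gene program. Adipoq encodes adiponectin, Lep leptin and Cfd the serum protease adipsin, and all of them are secreted by fat cells. Fabp4 is a fatty acid carrier protein and Car3 a cytosolic carbonic anhydrase abundant in fat and slow muscle. Scd1 makes monounsaturated fatty acids, and Plin1 and Plin4 coat lipid droplets.

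On build GRCm38, Adipoq lies at chr16:23146536-23157968, Lep at chr6:29060221-29073876, Cfd at chr10:79890853-79892655 and Fabp4 at chr3:10204342-10208616. Car3 lies at chr3:14863538-14872381, Scd1 at chr19:44394450-44407709, Plin1 at chr7:79721164-79732904 and Plin4 at chr17:56100587-56109948. RefSeq promoter windows of build GRCm38.p6 were matched for 5 of the 8 genes, Adipoq, Lep, Cfd, Plin1 and Plin4. Each window runs from 250 bases before to 50 bases after a start position. For Adipoq, Lep and Cfd that position is the gene start printed above. For Plin1 and Plin4, on the minus strand, it lies inside the gene span printed above and not at its edge. The windows of Adipoq, Plin1 and Lep are shown because Adipoq parted from the other genes at P28, Plin1 was present in every testis library, and Lep was near 0 in most. Each is written 5′ to 3′ on the gene's strand. The Adipoq window is chr16:23146286-23146585 on the plus strand, the Plin1 window chr7:79732727-79733026 on the minus strand and the Lep window chr6:29059971-29060270 on the plus strand. Capitals mark CCAAT on either strand in Adipoq, and TTGCNNAA, letters of a motif bound by C/EBP factors, in Plin1 and Lep.
Adipoq: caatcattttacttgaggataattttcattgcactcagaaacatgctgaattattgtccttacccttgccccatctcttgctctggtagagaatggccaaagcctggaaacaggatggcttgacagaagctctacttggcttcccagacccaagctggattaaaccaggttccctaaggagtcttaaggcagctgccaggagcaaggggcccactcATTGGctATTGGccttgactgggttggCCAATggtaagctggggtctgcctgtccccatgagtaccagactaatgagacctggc
Plin1: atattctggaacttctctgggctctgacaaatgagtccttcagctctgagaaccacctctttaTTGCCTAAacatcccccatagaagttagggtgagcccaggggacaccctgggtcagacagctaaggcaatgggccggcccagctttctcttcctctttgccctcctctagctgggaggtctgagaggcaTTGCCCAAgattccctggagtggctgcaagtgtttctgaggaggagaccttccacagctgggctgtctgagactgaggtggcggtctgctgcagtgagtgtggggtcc
Lep: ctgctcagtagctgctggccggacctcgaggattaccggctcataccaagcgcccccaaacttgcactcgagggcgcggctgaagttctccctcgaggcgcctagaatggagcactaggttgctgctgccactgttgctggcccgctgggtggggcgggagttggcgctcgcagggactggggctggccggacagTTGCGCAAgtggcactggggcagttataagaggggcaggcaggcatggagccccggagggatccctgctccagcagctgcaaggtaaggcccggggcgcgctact

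The letters TTGCNNAA, searched on both strands, occurred in 2 of the 5 windows, those of Lep and Plin1, and in 10.8% of 32851 mouse promoter windows of the same length. The nuclear receptor motif AGGTCA and the TATA box letters TATAAA occurred in 0 of 5 windows, against 16.3% and 13.6% of all windows. CCAAT and the cyclic AMP response element TGACGTCA were added after the sequences were seen. CCAAT occurred in 2 of 5 windows, 3 times in Adipoq and 1 time in Plin4, against 37.4% of all windows, and TGACGTCA in 0 of 5 against 1.79%. None of these motifs overlapped another in the windows printed.

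At P14 nearly all of the rise sat in 1 of the 2 knockout libraries. The 8 genes summed to 22.1 and 24.6 CPM in the heterozygous libraries, to 33.6 CPM in knockout replicate 1 and to 188 CPM in knockout replicate 2. In the other 19 testis libraries of the study the sum ran from 21.0 to 46.6 CPM. The ratio of the genotype means was 4.75 with both knockout libraries and 1.44 without replicate 2. All 4 P14 libraries have the same labels apart from genotype and number.

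**Figure D1:**
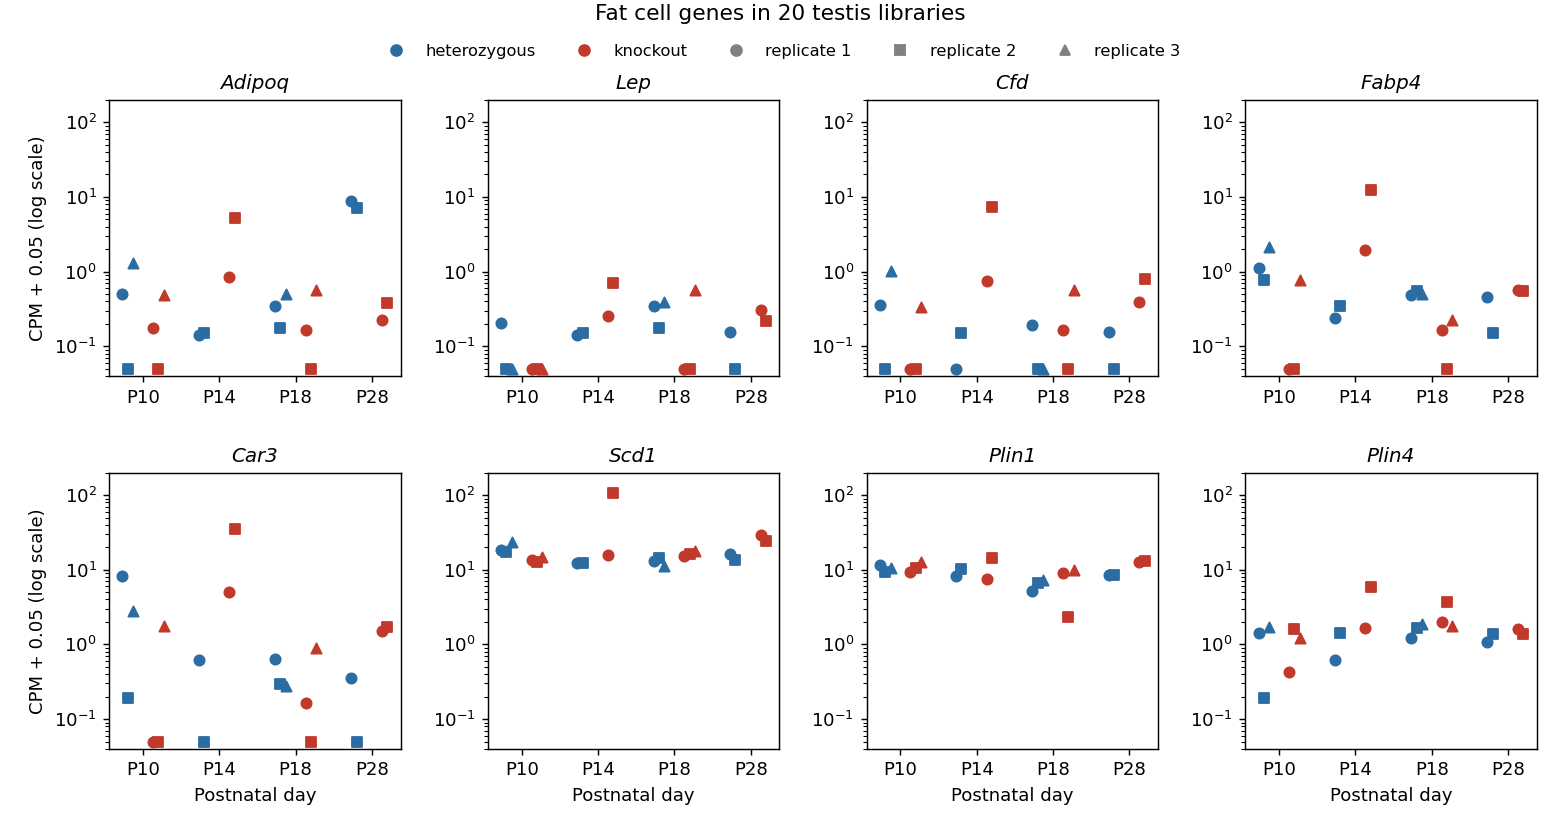
CPM plus 0.05 on a log axis for each of the 8 genes in the 20 testis libraries, by postnatal day, with heterozygous libraries in blue, knockout libraries in red and a marker shape per replicate number. The red square at P14, knockout replicate 2, is the highest point of every panel except Adipoq, where the heterozygous libraries at P28 (8.86 and 7.08 CPM) stand above it.

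Among the secreted proteins, Adipoq had 1 and 1 counts in the P14 heterozygous libraries, and 8 and 63 in the knockouts. Cfd had 0 and 1 counts in the heterozygous libraries, and 7 and 90 in the knockouts. Lep had 1 and 1 against 2 and 8. Knockout replicate 2 was the high library for all of these hormone and protease genes, and replicate 1 lay between it and the controls. Pooled over the libraries of a genotype, the knockout rate was 33.4 times the heterozygous one for Adipoq, with an exact counting interval of 8.90 to 281. For Cfd the ratio was 91.2 with an interval of 16.0 to 3640, and for Lep 4.70 with an interval of 1 to 44.1. These intervals are wide since the controls had 1 or 2 counts in all. They cover counting error only and are no test of the contrast that chose the genes. Replicate 1 alone was 8.42 times the control mean for Adipoq, 14.3 times for Cfd and 2.1 times for Lep.

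Fabp4 lay at 0.187 and 0.297 CPM in the P14 heterozygous libraries and at 1.92 and 12.2 CPM in the knockouts. Car3 lay at 0.561 and 0 CPM against 5.06 and 35.6 CPM. Scd1, which every testis library contained, lay at 12.3 and 12.4 CPM against 15.9 and 107 CPM. The 3 genes did not overlap between genotypes, but Scd1 in knockout replicate 1 was only 1.29 times the heterozygous mean, against 18.0 times for Car3 and 7.95 times for Fabp4.

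The perilipins moved least. Plin4 had 0.561 and 1.38 CPM in the heterozygous libraries and 1.62 and 5.79 CPM in the knockouts. Plin1 had 8.32 and 10.3 CPM against 7.39 and 14.1 CPM, so knockout replicate 1 lay below both controls and the genotypes overlapped. In all, 7 of the 8 genes were higher in both knockout libraries than in both controls, and Plin1 was not. The same held for 23.1% of the 16334 features that passed the low-count filter, and 0.992% of them passed the test at P14 in either direction. Since this contrast chose the genes, nothing is read from that count.

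The difference between the 2 knockout libraries was large beside that of other genes. Replicate 2 exceeded replicate 1 by 10.4 times for Cfd, 7.04 times for Car3, 6.75 times for Scd1, 6.36 times for Fabp4 and 6.35 times for Adipoq. The ratio was 3.58 for Plin4, 3.22 for Lep and 1.91 for Plin1. Of 15434 features with at least 10 counts in the pair, 36 (0.233%) were at least 5 times higher in replicate 2, and 32 (0.207%) were at least 5 times higher in replicate 1. Replicate 2 held the highest CPM of all 20 testis libraries for 7 of the 8 genes, and for 847 of 22177 features with a count (3.82%). The genes were chosen on the mean of this pair, so these counts describe it and test nothing.

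**Figure D2:**
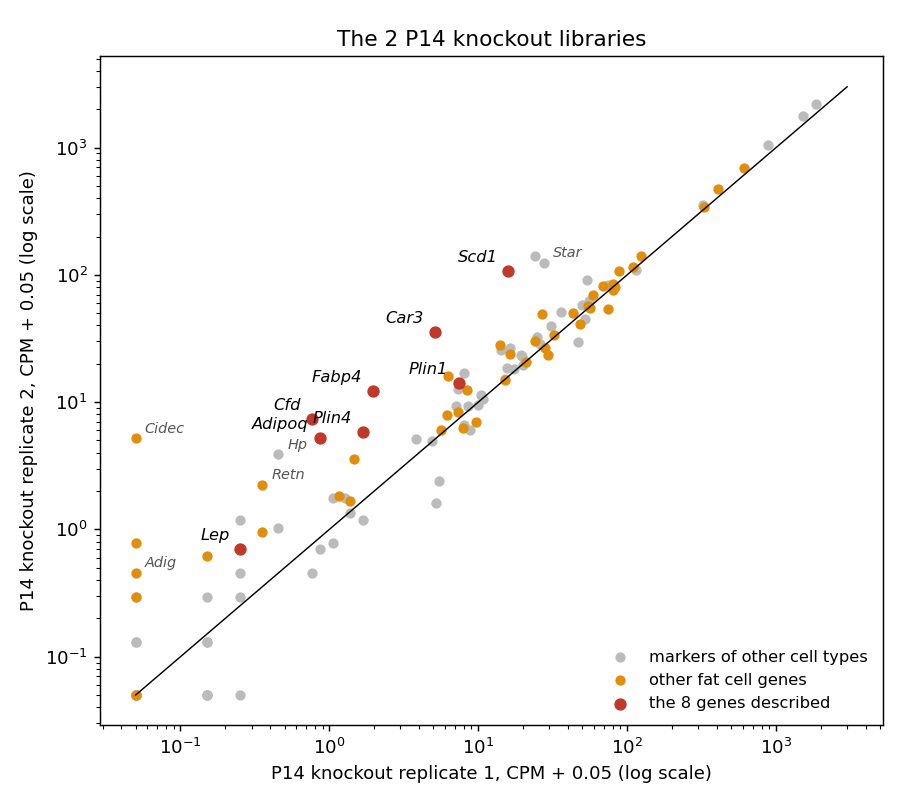
CPM plus 0.05 in the 2 P14 knockout libraries, both axes on a log scale, for the 8 genes (red), 43 other fat cell genes (orange) and markers of other cell types (grey), with a line of equal level. The 8 red points and Cidec, Retn and Hp lie above the line, and most orange points with more than about 10 CPM lie close to it.

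Fat cell genes outside the 8 showed which transcripts shared this library. Cidec, a lipid droplet protein of fat cells, had 63 counts in P14 knockout replicate 2, 0 in the other 3 libraries of that age and 0 to 3 in the remaining libraries. Retn, the secreted protein resistin, had 27 counts there, 3 in knockout replicate 1, and 0 and 3 in the controls. Lgals12 had 9 counts and Adig 5, against 0 or 1 in the other P14 libraries. Cd36, a fatty acid receptor also made by endothelium and macrophages, had 195 counts against 61 to 75. Among 6 lists of fat cell genes, 42 genes had a count at P14. Of these, 27 (64.3%) were highest in knockout replicate 2, against 28.3% of all features. Lists of other cell types also had high shares, with 6 of 7 endothelial genes (85.7%), 5 of 7 fibroblast genes (71.4%) and 3 of 5 acute phase genes (60%) highest there. At least double the next P14 library were 7 of the 42 (16.7%), namely Adig, Cd36, Cidec, Lgals12, Orm1, Pck1 and Retn, against 2.70% of all features. Orm1 had only 3 counts there, against 0 in the other P14 libraries. By this rule other lists had 2 of 5 acute phase genes (40.0%), 2 of 8 Leydig cell genes (25.0%) and 1 of 7 brown fat genes (14.3%). Epididymis had 1 of 8 (12.5%), skeletal muscle 1 of 15 (6.67%), and endothelium, fibroblasts, mesothelium and macrophages 0.

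Not every fat cell gene was highest there. Of the 9 defining fat cell markers outside the 8 genes, 7 (77.8%) were highest in replicate 2 among the P14 libraries, and 4 of them at least double the next library (Adig, Cidec, Lgals12 and Retn). Adrb3, Cebpa and Thrsp were the other 3, Cebpa at 23.7 CPM against 16.2 CPM in replicate 1 and a mean of 21.6 CPM in the controls. The 2 exceptions were Pparg, the nuclear receptor that drives fat cell formation, and Slc2a4, the insulin-regulated glucose transporter. Pparg lay at 6.93 CPM in replicate 2, 9.61 CPM in replicate 1 and 7.48 CPM on average in the controls, and Slc2a4 at 6.2, 7.79 and 8.01 CPM. Of the 6 fat cell transcription factors 3 (50%) were highest in replicate 2 and 0 at least double, and of 4 lipolysis genes with a count 1 (25%) was highest. The 9 defining markers summed to 47.7 CPM, against 35.1 to 39.0 CPM in the other P14 libraries and up to 54.8 CPM elsewhere, and all 9 had counts in replicate 2.

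Markers of other tissues moved unequally in that library. Leydig cell genes summed to 545 CPM against 283 to 383 CPM in the other P14 libraries, led by Star (1527 counts against 272 to 391) and Cyp17a1 (1715 against 236 to 655), both proteins of steroid synthesis. Only 3 of the 8 Leydig cell genes (37.5%) were highest there. Not highest were Hsd3b1 (109 CPM against 114 CPM in replicate 1) and Insl3 (9.46 against 9.92 CPM). Lhcgr (9.30 CPM against a control mean of 10.6 CPM) and Hsd3b6 (50.6 CPM against a control mean of 53.7 CPM) were not highest either. Nor was Cyp11a1, at 90.8 CPM against 53.7 CPM in replicate 1, but below heterozygous replicate 1. Fibroblast genes summed to 5458 CPM against 3159 to 4799 CPM, and endothelial genes to 147 against 108 to 119 CPM. Skeletal muscle genes summed to 56.7 CPM against 64.5 to 69.0 CPM, and the 11 epididymis genes to 1.55 CPM against 1.31 to 1.72 CPM. Hp, the acute phase protein haptoglobin, had 47 counts against 4 to 6. Whether fat tissue, Leydig cells or any other source set the 8 genes' level in this library was not tested. In whole-testis RNA more cells of a type and more RNA per cell cannot be told apart.

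The 5 genes with few counts in most other testis libraries (Adipoq, Fabp4, Car3, Cfd and Lep) were picked after their values were seen. They differed in amount between the P14 knockout libraries, while the share of each in replicate 2 lay within its counting interval in replicate 1. This was not so for the makeup of all 8 genes. Of their counts, Plin1 made up 21.99% in replicate 1 and 7.502% in replicate 2, and Scd1 47.29% and 56.98%. The 5 genes summed to 8.70 CPM in replicate 1 and to 61.0 CPM in replicate 2. Car3 made up 58.1% of their counts in replicate 1 (95% Clopper-Pearson interval 47.0% to 68.7%) and 58.4% in replicate 2 (54.8% to 62.0%). Fabp4 made up 22.1% and 20.1%, Adipoq 9.30% and 8.42%, and Cfd 8.14% and 12%. Knockout libraries at P28, with 32 and 41 such counts, had Car3 shares of 53.1% and 48.8%, with intervals that reach from 32.9% to 70.9%. The heterozygous libraries at P28 differed from all of these, with Adipoq shares of 90.5% (82.8% to 95.6%) and 98.6% (92.3% to nearly all).

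Single libraries with these genes also occurred at P10, in both genotypes. Car3 had 54, 1 and 20 counts in the heterozygous libraries and 0, 0 and 12 in the knockouts. Fabp4 had 7, 5 and 15 against 0, 0 and 5, Adipoq 3, 0 and 9 against 1, 0 and 3, and Cfd 2, 0 and 7 against 0, 0 and 2. Heterozygous replicates 1 and 3 and knockout replicate 3 were the high libraries, with 10.2, 7.03 and 3.18 CPM for the 5 genes together, and the other 3 had at most 0.863 CPM. In heterozygous replicate 1 Car3 made up 80.6% of the 5 genes' counts (69.1% to 89.2%).

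At P10, 0 of the 6 genes that passed the low-count filter passed the test, edgeR's quasi-likelihood F test with p adjusted over all 16334 features. Cfd and Lep were below the filter. Car3 had a log2 fold change of -2.72 ± 1.18 (SE, adjusted p = 0.639) and Fabp4 of -2.45 ± 1.04 (adjusted p = 0.621), and both had an unadjusted p below 0.05. Scd1 was lower in each knockout library (12.5 to 14.7 CPM) than in each control (17.1 to 23.3 CPM), with -0.53 ± 0.43 (adjusted p = 0.846), and 5.84% of all features were likewise lower without overlap. DESeq2 called 0 of the 6 as well. Of all features 0.00612%, a single one, passed at this age.

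At P18, 0 of the 6 genes tested passed, with 0 at an unadjusted p below 0.05, where 3.43% of all features passed. DESeq2 called 0 too. Adipoq, Car3, Cfd, Fabp4 and Lep each had 0 to 5 counts in every library. Fabp4 had 3, 4 and 4 counts in the heterozygous libraries and 1, 0 and 1 in the knockouts (log2 fold change -2.19 ± 1.53, adjusted p = 0.524 by edgeR). Scd1 lay at 13.0, 14.2 and 11.2 CPM against 15.1, 16.4 and 17.7 CPM, which did not overlap (0.30 ± 0.44, adjusted p = 0.801 by edgeR). Without overlap, 8.37% of all features were higher and 8.41% lower at this age. Plin1 was uneven among the knockouts, at 8.95, 2.27 and 9.79 CPM.

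At P28 Adipoq went the other way from P14. It had 86 and 69 counts (8.86 and 7.08 CPM) in the heterozygous libraries, and 2 and 4 counts (0.172 and 0.332 CPM) in the knockouts. Both knockout libraries lay far below both controls, and the log2 fold change was -5.20 ± 0.76 (edgeR, adjusted p = 1.14e-05). This was the only 1 of 6 genes that passed, where 25.1% of all features were lower and 50.9% passed in either direction. The change at P28 minus that at P18 was -4.56 ± 2.0, which did not pass (edgeR, adjusted p = 0.104), where 23.7% of all features did. It did with DESeq2 (adjusted p = 0.0114), and in edgeR with only the libraries compared (adjusted p = 0.0274) and with the replicate block (adjusted p = 0.0207). It also did in edgeR when P14 knockout replicate 2 was left out of the shared spread (adjusted p = 0.0453). With only the libraries compared, Adipoq passed the filter through the P28 heterozygous libraries alone, so a tested difference could only be negative.

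**Figure D3:**
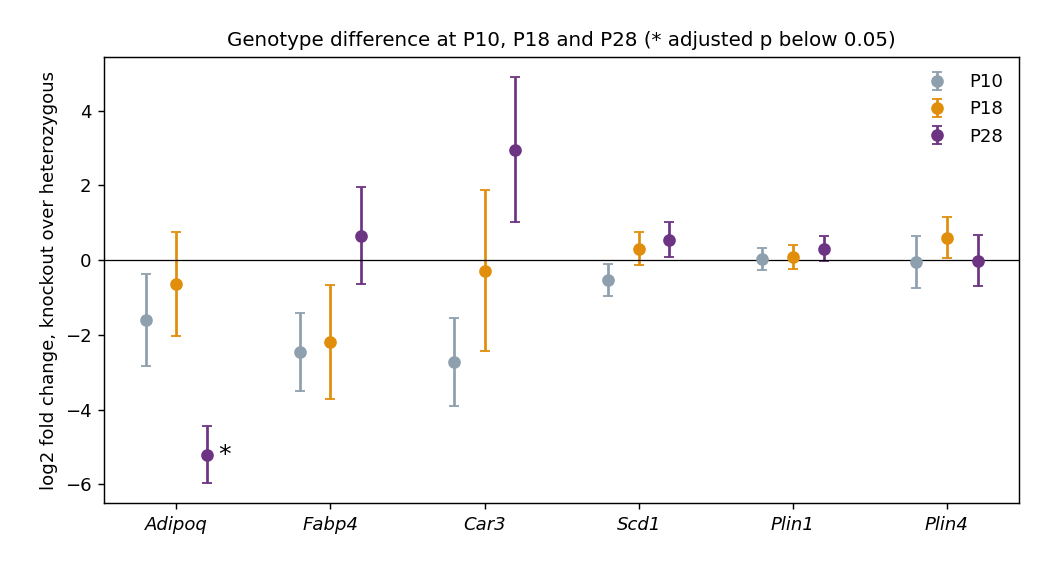
Log2 fold change of knockout over heterozygous testes with its standard error for the 6 genes that passed the low-count filter, at P10, P18 and P28. Only Adipoq at P28 (-5.20 ± 0.76) has a star for an adjusted p below 0.05, and the bars of Car3 and Fabp4 span more than 2 log2 units.

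None of the other 5 genes tested at P28 passed edgeR's test, and Cfd and Lep were below the filter. Car3 had 3 and 0 counts against 17 and 20 (log2 fold change 2.96 ± 1.93, adjusted p = 0.210), and Cfd 1 and 0 against 4 and 9. Fabp4 had 4 and 1 against 6 and 6 (0.66 ± 1.29, adjusted p = 0.693). Scd1 lay at 16.3 and 13.5 CPM against 29.6 and 24.0 CPM, without overlap (0.55 ± 0.48, adjusted p = 0.350). Plin1 lay at 8.56 and 8.41 against 12.7 and 13.1 CPM (0.31 ± 0.33, adjusted p = 0.452), and Plin4 at 1.03 and 1.33 against 1.55 and 1.33 CPM.

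Scaling matters at P28. On total counts 6 of the 8 genes were higher in both knockout libraries without overlap, as were 62.7% of all features tested. TMM scaling lowered log2 ratios of knockout over heterozygous by 0.30 at this age, and 5 of 8 then did not overlap, Fabp4 being the one lost. P14 knockout replicate 2 also bears on these tests, since all 20 libraries share the estimate of the spread. Without it Scd1 passed at P28, with 0.55 and an adjusted p of 0.00949. With only the 4 P28 libraries in the fit, Car3 (2.88, adjusted p = 2.01e-04) and Scd1 (0.46, adjusted p = 7.49e-04) passed in edgeR. In that fit Car3 passed the low-count filter through the knockout libraries alone, so a tested difference could only be higher.

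Between ages in the heterozygous testes, Adipoq rose from 0.291, 0.125 and 0.450 CPM at P18 to 8.86 and 7.08 CPM at P28 (log2 fold change 5.05 ± 0.70, edgeR, adjusted p = 3.15e-06). It was the only 1 of 6 genes called in that step, in which 62.3% of all features passed, 31.4% upward. Plin1 had 0.76 ± 0.33 (edgeR, adjusted p = 0.0544). Plin1 passed in 6 of 12 alternatives, with adjusted p from 0.00524 to 0.0363 there and up to 0.297 on total counts. From P10 to P18 Car3 fell by 3.12 ± 1.29 on the log2 scale (edgeR, adjusted p = 0.0354), where 73% of features passed, 34.6% downward. That call rested on single libraries, since without P10 heterozygous replicate 1 the value was -1.85 (adjusted p = 0.284). It was also lost without P18 heterozygous replicate 2 (adjusted p = 0.0870) or 3 (adjusted p = 0.0939), and with DESeq2 (adjusted p = 0.111).

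Adipoq was the one of the 8 genes with a clear level in round spermatids, the haploid germ cells formed after meiosis. It had 118, 52 and 54 counts in the heterozygous round spermatid libraries, or 217, 116 and 113 CPM, and 1, 0 and 0 counts in the libraries labelled knockout. The pooled rates differed by 146 times, with an exact counting interval of 26.0 to 5800. The fitted log2 fold change was -6.97 ± 1.05 (edgeR, adjusted p = 0.00570), where 18.4% of 6703 features were lower and 38.1% passed. Adipoq was the only 1 of the 8 genes past the low-count filter in this table, and it passed through the heterozygous libraries alone, so a tested difference could only be lower. The adjusted p rose to between 0.0598 and 0.0651 when any 1 heterozygous library was left out, and no feature then passed.

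In spermatocytes Adipoq had 33, 0 and 0 counts in the heterozygous libraries and 0 in the 3 knockout libraries. The library with 33 counts also held the most spermatid RNA of the 6, with 517 CPM for the 8 spermatid genes against 206 to 345 CPM, and had 14 Tnp1 counts where the others had 0. The part of spermatid RNA in that value was not tested. A count of 0 in purified cells allows a level of up to 5.52 to 15.5 CPM.

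The other 7 genes had few or 0 counts in purified germ cells, where a 0 does not exclude the low levels that several of them had in testes. Car3, Cfd and Lep had 0 counts in all 12 libraries, Fabp4 had 1 count in each of 2 heterozygous spermatocyte libraries and Plin1 1 count in a round spermatid library labelled knockout. Scd1 had 1, 0 and 15 counts in the libraries labelled knockout round spermatids and 0 in the other 9. Plin4 had 1 to 6 counts in all 6 spermatocyte libraries (2.60 to 18.6 CPM, against group means of at most 3.71 CPM in testes), 1, 1 and 5 in heterozygous round spermatids, and 15, 0 and 18 in the libraries labelled knockout. Leydig cell genes summed to 98.6 to 587 CPM in those 3 libraries and to at most 20.2 CPM in heterozygous round spermatids. In spermatocytes, where Scd1 was 0, they summed to 488 to 712 CPM, nearly all from Star (224 to 326 counts). Cyp11a1, Hsd3b1, Hsd3b6, Insl3, Lhcgr and Hsd17b3 had 0 counts there. In knockout-labelled round spermatid replicate 3 the sum was spread over Insl3 (62 counts), Cyp17a1 (46), Hsd3b1 (45), Hsd3b6 (27) and Star (24). Macrophage genes summed to 12 to 2283 CPM in the libraries labelled knockout round spermatids against 27.2 to 31.3 CPM in the heterozygous ones, and fibroblast genes to 0 to 793 CPM against 164 to 210 CPM. Macrophage, fibroblast and Leydig cell sums were all highest in replicate 3, which held 15 Scd1 and 18 Plin4 counts. Replicate 2 also held macrophage RNA (Lyz2 111 and Mrc1 74 counts), with 0 Scd1 and 0 Plin4 counts. Replicate 1 held 15 Plin4 counts and had the lowest macrophage sum, 12 CPM. The part of macrophages, fibroblasts and Leydig cells in the Scd1 and Plin4 counts was not tested.

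**Figure D4:**
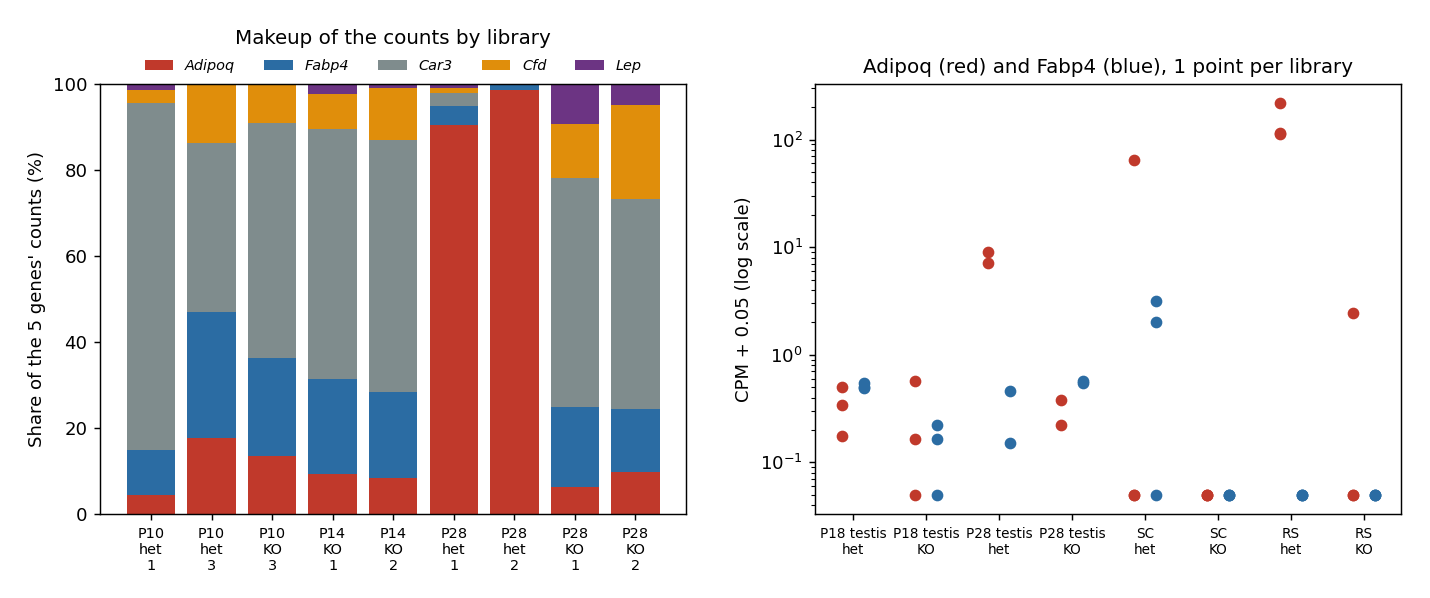
Left, the share in percent of each of 5 genes in their summed counts, for the testis libraries with at least 20 such counts. Right, CPM plus 0.05 on a log axis of Adipoq and Fabp4 in testes, spermatocytes (SC) and round spermatids (RS), 1 point per library, with Adipoq at 113 to 217 CPM and Fabp4 at 0 counts in heterozygous round spermatids.

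A second group of fat cell genes had the P28 pattern of Adipoq. Adig, a small fat cell protein, had 191 and 199 counts in P28 heterozygous testes against 1 and 0 in knockouts, a pooled ratio of 475 with an exact counting interval of 84.8 to 18800. Aqp7, a glycerol channel known from fat cells and sperm, had 1301 and 1392 counts against 3 and 1 (log2 fold change -9.87 ± 0.51, edgeR, adjusted p = 1.47e-12). Adig had 4, 10 and 5 counts in heterozygous round spermatids and 0 in those labelled knockout, and Aqp7 had 35, 42 and 27 against 1, 0 and 9. The 8 spermatid genes summed to 6587 and 7046 CPM in P28 controls and to 1.49 to 1.8 CPM in knockouts, and all 8 were lower. Their part in the difference of Adipoq, Adig and Aqp7 was not tested.

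The fixed lists at P28 were split, where 25.7% of all features were higher and 25.1% lower. Of the lipolysis genes, 3 of 3 tested were lower, Lipe (hormone-sensitive lipase, -2.60 ± 0.15), Abhd5 (-1.57 ± 0.09) and Pnpla2 (-0.66), with a median of -1.57 against 0.12 for all features. Of the triglyceride and fatty acid synthesis genes, 6 of 14 were higher and 3 lower. The acyltransferase Dgat2 (-2.94 ± 0.09) was lower and Gpam (0.69 ± 0.12) and Acacb (0.82 ± 0.19) were higher. Of the lipid droplet proteins, 1 of 5 was higher and 2 lower, among them Plin2 (-1.58 ± 0.13). Of the uptake genes, 2 of 5 were higher and 2 lower, and of the transcription factors 2 of 6 were higher (Srebf1 and Mlxipl) and 0 lower. Of the secreted and other fat cell genes, 2 of 5 were higher, Rbp4 (0.97 ± 0.18) among them, and 1 lower, Adig. Macrophage genes were higher for 5 of 7 and Leydig cell genes for 2 of 8. At P10 none of the genes in these 6 fat cell lists passed, and at P18 only Abhd5 did (-0.31 ± 0.08, edgeR, adjusted p = 0.0378).

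Small RNA libraries held few reads over the 8 genes. Adipoq had 0 counts in all 14 small RNA libraries and all 12 piRNA-enriched ones. Car3, Cfd, Fabp4, Lep and Plin1 had 0 to 5 counts each. Scd1 and Plin4 were the exceptions, with Scd1 at 11.1 to 12.2 CPM and Plin4 at 10.3 to 15.2 CPM in piRNA-enriched libraries of P10. In those of P14 Scd1 lay at 0.818 and 3.90 CPM in the heterozygous and at 4.58 and 10.5 CPM in the knockout libraries. Plin4 lay at 1.27 and 6.82 CPM against 12.8 and 13.0 CPM. By P18 Scd1 lay at 0 and 0.138 CPM against 0.467 and 0.642 CPM, and Plin4 at 0.344 and 0.425 CPM against 0.734 and 6.31 CPM. The genotype differences in small RNA were not tested.

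Deviations from group means over the 20 testis libraries were compared with the mean deviation of the 6 genes past the low-count filter, without Cfd and Lep. The genes most alike were Tmed8 (Pearson r = 0.94), Wnk3 (0.92), Sstr5 (0.92), Tubgcp6, Usp31, D5Ertd579e, Atp9b, D830031N03Rik, Cd36 (0.82) and Necab3 (0.81). Cd36 was the only gene of the fat cell lists among the 10. The libraries differ in depth and the 6 genes include several near 0, so r describes these libraries only. Without the 2 P14 knockout libraries r ran from 0.65 to 0.91.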

How the data were processed

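Whole testes, purified spermatocytes and round spermatids, and small RNA of testes were analysed. Per the labels' protocols, poly(A) RNA libraries were made with a Nextera kit for testes and a stranded NEBNext kit for purified cells. Per the submitters' processing notes, the tools on mm10 were Cufflinks, TopHat2 2.1, Subread 1.4.6-p3 with featureCounts, and cutadapt 1.8.1. Settings for strand and shared reads are not given in the sources used here. The authors deposited raw counts per gene, which were used unchanged. The ChIP-seq and ATAC-seq samples were not analysed here. One small RNA column matching no title was used as an unnumbered P18 heterozygous library.

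Counts were tested by the quasi-likelihood F test of edgeR 4.0.16 (R 4.3.3) after filterByExpr and TMM, with all libraries of a table in 1 fit. Benjamini-Hochberg adjustment covered every feature tested, and the threshold was 0.05. The filter asked for about 1.19 CPM in at least 2 testis libraries and left 16334 of 24276 features, with 6 of the 8 genes. Adipoq reached that level in 4 libraries, both P28 heterozygous ones among them, and Fabp4 in 3, both P14 knockout ones and P10 heterozygous replicate 3. CPM used total counts. Alternatives were DESeq2 1.42.0, other scalings, no filter, only the libraries compared, a replicate block and leaving out libraries. On simulated data with 200 changed features, 4-fold changes were found in 81.0% to 97.0% of cases in the testis comparisons and in 0% in round spermatids. False calls were 4 to 17 of 149 to 192 in testes. Intervals of shares and low counts are exact (95%).

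The 8 genes, the gene lists and the tests were chosen with earlier results of these data known. Named were the 8 genes, list genes that passed (at most 4 per direction) or else those with the largest fold change, and the 10 genes most alike in pattern. Cidec, Retn, Lgals12, Adig, Cd36, Pparg, Slc2a4, Star, Cyp17a1 and Hp were named at P14 after their values were seen.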

Additional observations from a re-analysis of the deposited data

Results flagged for a closer look

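For Scd1 every knockout library lay below every heterozygous one at P10, and above every one at P18 and P28. The log2 ratio of mean CPM was -0.52 at P10, 0.35 at P18 and 0.85 at P28, a difference of 0.88 between P18 and P10 and of 1.37 between P28 and P10. Neither difference was tested. Of all features tested, 5.84% were lower without overlap at P10, and 8.37% at P18 and 62.7% at P28 were higher without overlap. The Scd1 ratios used total counts, and TMM scaling lowered log2 ratios by 0.30 at P28, 0.05 at P18 and 0.005 at P10. With TMM scaling Scd1 still did not overlap at these ages.

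For Fabp4 every knockout library lay below every heterozygous one at P18 (log2 ratio -2.28) and above at P28 (0.98), a difference of 3.26. These ratios rest on 2 against 11 counts at P18 and 12 against 5 at P28, and with TMM scaling the P28 groups overlapped. On total counts, 8.41% of all features tested were lower without overlap at P18 and 62.7% were higher without overlap at P28. In edgeR the difference of the 2 genotype effects was 2.84 ± 2.02 (adjusted p = 0.322), which did not pass. Pairs with P14, where the genes were chosen for their rise, are left out. Groups of 2 or 3 libraries were too small for a check of single outlying values.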

How the results depend on the processing

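For the named genes, 423 of 472 values under the alternatives kept direction and side of the threshold, 17 passed newly, 7 no longer passed, 25 that never passed moved or changed sign, and none that passed changed direction. Genes called at P10 went from 1 to 5 without the low-count filter and 13 with DESeq2 (1 to 4 leaving out a library). At P14 they went from 162 to 351 without the filter, 290 with DESeq2 and 60 with only the libraries compared (47 to 347 leaving out a library). At P18 they went from 560 to 92 with only the libraries compared (191 to 1228 leaving out a library), at P28 from 8306 to between 5800 and 6673 leaving out a library. For the P28 minus P18 difference they went from 3875 to 7121 on total counts (2139 to 3770 leaving out a library).

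Of the 8 genes, those called at P28 went from 1 to 3 with only the libraries compared and to 2 without P14 knockout replicate 2 in the shared spread. In the fit of only the P28 libraries, Car3 passed the filter through the knockouts alone and Adipoq through the controls alone. The genes called in heterozygous testes from P10 to P18 went from 1 to 0 with DESeq2 and to 2 without P14 knockout replicate 2 (0 to 1 leaving out a library). From P18 to P28 they went from 1 to 2, Plin1 being added, with RLE scaling, without the filter, with DESeq2 and with the replicate block, and to 3 with only the libraries compared and without P14 knockout replicate 2. For the P28 minus P18 difference they went from 0 to 1 with DESeq2, only the libraries compared, the replicate block and without P14 knockout replicate 2. In these cases the cause was not tested.

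In round spermatids the called features went from 2553 to 416 with the replicate block and ranged from 0 to 5254 leaving out a library, with 0 to 2 of the 8 genes. The P14 ratio of the summed CPM, 4.75, ranged from 1.44 to 8.06 leaving out a library. Same-numbered libraries did not deviate together (correlations from -0.22 to 0.07), so the replicate number was not taken to pair samples. Genes with under 10 counts in a group cannot show a difference of modest size at this depth.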

Other observations

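Crisp1, a secretory protein of the epididymis, had 78 and 26 counts in P10 knockout replicates 2 and 3, 48 in P18 heterozygous replicate 1 and 113 in P18 knockout replicate 3, and 0 to 2 in the other 16 testis libraries. P18 knockout replicate 3 was also the P18 library with the most counts for Adipoq, Fabp4, Car3, Cfd and Lep together (2.58 CPM). P10 knockout replicate 2, however, had 0 counts for all 5. P14 knockout replicate 2 had 1 Crisp1 count. Serpina3n, an acute phase protein, had 79 and 207 counts in the P14 knockout libraries and 4 and 6 in the controls, but also 85 in P18 heterozygous replicate 1, 69 and 71 in the P28 controls and 0 to 31 at P10. It was named after its values were seen.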
